A study of Rattus norvegicus with 9 samples.

Results

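The genes described here encode the voltage-gated sodium, calcium and potassium channels and the other potassium channels, with their accessory subunits. They were taken from the gene table by name and type, as protein-coding genes whose symbols begin with Kcn or Cacn or have the form Scn, a number and the letter a or b. Of 131 such genes among 34092 in the table, 96 had a mean of at least 0.5 FPKM (fragments scaled to gene length and sequencing depth) over the 9 libraries, and these 96 are the members. They comprise 10 sodium, 20 calcium and 66 potassium channel genes. The neurons came from the hippocampus of wild-type rat fetuses at embryonic day 17 and were kept for 7 days in vitro. Control cultures received vehicle, a second group received 1 nM human NPCT, and the third received 1 nM human PCT, each for 24 h, with 3 libraries per group. PCT is procalcitonin, the precursor protein, and NPCT (aminoprocalcitonin) is the peptide cut from its amino-terminal end. The question was how either peptide changed the RNA of the cultured neurons. Per the study's methods, RNA was taken from pooled samples of biological triplicates, so the p-values measure the spread between these libraries, which may be partly technical, and the cultures were grown without mitotic inhibitors.

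Voltage-gated sodium channels open on depolarisation and carry the rising phase of the action potential. Their large alpha subunits form the pore, and the small beta subunits adjust gating and anchor the channel at the membrane. Voltage-gated calcium channels couple depolarisation to transmitter release, to dendritic calcium entry and to gene expression. Potassium channels repolarise the membrane, set the resting potential and limit repetitive firing. They include the voltage-gated Kv families, the calcium- and sodium-activated channels, the inward rectifiers (Kir) and the leak channels with paired pore domains (K2P). Although neurons express most of these genes, Kcnj10 and Kcnj16 are known as inward rectifiers of astrocytes, in which they clear potassium released by firing neurons.

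The libraries held between 13573056 and 17211642 fragments assigned to genes. A member had as few as 10 fragments in its poorest library, and the median over members of the poorest library was 225 fragments. For 24 members, at least 1 library held fewer than 100. PCT replicate 3 stood apart from the other PCT libraries, with a chi-square per degree of freedom over all tested genes of 19.5 and 22.2 against them, compared with 6.42 between those 2. NPCT replicate 3 stood apart in its group less strongly, at 10.9 and 11.0 compared with 4.44, and the 3 Control pairs were at 4.20 to 5.03. How the calls changed without these libraries is given with each comparison, in counts and for the main genes. The labelled cell type was checked on 14 neuronal markers, and all 14 were expressed, with a summed level between 2191 and 2446 FPKM in every library. The 9 astrocyte markers were expressed as well, with sums between 2122 and 2681 FPKM, as were 11 microglial markers, at 16.4 to 216 FPKM, and 9 markers of the oligodendrocyte lineage, at 354 to 455 FPKM. Markers of endothelium and pericytes summed to 4.12 to 5.13 FPKM, with Cldn5 listed at 0 in all libraries, those of fibroblasts to 20.3 to 33.6 FPKM and those of dividing cells to 60.6 to 82.0 FPKM. In such mixed cultures, fewer cells of a type and less RNA per cell cannot be told apart.

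Among the sodium channel genes, the beta subunit gene Scn3b had the highest mean level over all libraries, 45.1 FPKM. The pore-forming subunit gene Scn2a followed with 27.4 FPKM and Scn8a with 19.9 FPKM. Scn2a and Scn8a encode the principal channels of the axon initial segment of excitatory neurons. Scn3a, the alpha subunit typical of the fetal brain, was at 14.3 FPKM, whereas Scn1a, the alpha subunit typical of mature inhibitory interneurons, was at 1.94 FPKM. The 6 alpha subunit genes summed to 80.1 ± 0.169 FPKM (SD, n = 3) in Control, 67.0 ± 2.96 FPKM in NPCT and 67.9 ± 3.67 FPKM in PCT. The 4 beta subunit genes summed to 83.9 ± 1.20, 78.8 ± 0.896 and 74.5 ± 5.75 FPKM.

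Among the calcium channel genes, the highest mean levels belonged to Cacng4 at 80.2 FPKM, Cacng7 at 73.6 FPKM and Cacnb3 at 56.1 FPKM. Cacng2, Cacng3, Cacng4, Cacng5, Cacng7 and Cacng8 are named after a calcium channel gamma subunit but are known mainly as auxiliary subunits of AMPA-type glutamate receptors (TARPs). Cacnb3 encodes a cytoplasmic beta subunit that brings the pore to the membrane. The pore-forming subunit genes were lower. Those of the presynaptic channels, Cacna1b and Cacna1a, were at 19.7 and 18.7 FPKM, Cacna1e at 13.9 FPKM, the L-type Cacna1c and Cacna1d at 12.6 and 7.19 FPKM, and the low-threshold Cacna1h and Cacna1g at 17.7 and 9.74 FPKM.

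Among the potassium channel genes, Kcnj10 was at 32.7 FPKM and Kcne5, which encodes a single-pass accessory subunit of Kv channels, at 26.6 FPKM. Kcnq3, a subunit of a channel that restrains firing, was at 7.97 FPKM. Of the Kv1 genes, Kcna1 and Kcna2, the low-threshold channels of axons, were at 10.1 and 11.7 FPKM. Kcnc1, a channel of fast-spiking neurons, was at 9.58 FPKM. The calcium-activated Kcnma1 and Kcnn2 were at 11.1 and 13.6 FPKM, and the sodium-activated Kcnt1 at 4.36 FPKM. The leak channel genes Kcnk1 and Kcnk2 were at 9.19 and 4.20 FPKM, and Kcnj3 and Kcnj6, subunits of the channel that opens on G protein activation, at 7.15 and 3.76 FPKM. Kcnh1 was at 5.04 FPKM. Kcnd2 and Cacna1i were not analysed here.

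**Figure D1:**
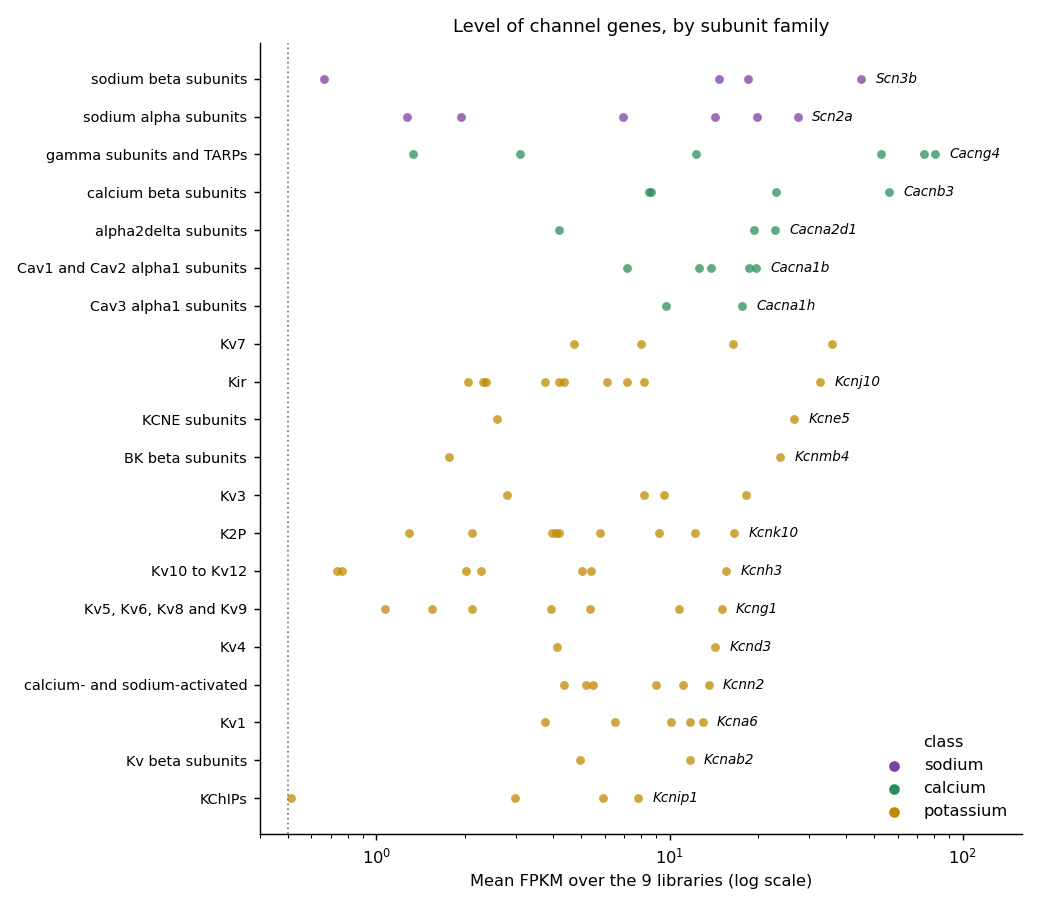
Mean FPKM over the 9 libraries (log scale) of the channel genes in subunit families with 2 or more members, with 1 point per gene, some of the highest genes named and the dotted line at the minimum of 0.5 FPKM. The 3 highest genes, Cacng4, Cacng7 and Cacnb3, encode auxiliary subunits and not pores.

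The minimum of 0.5 FPKM left out 35 genes of the name rule, of which 4 were sodium, 5 calcium and 26 potassium channel genes. The members nearest to it were Kcnip2 at 0.510 FPKM and Scn4b at 0.662 FPKM, and the genes just below it were Kcnab3 at 0.470 FPKM and Kcnk5 at 0.388 FPKM. Kcnip2 had a mean under 0.5 in Control, at 0.325 ± 0.0639 FPKM, and Scn4b in PCT, at 0.399 ± 0.175 FPKM, so that these 2 members passed through the groups in which they are higher. The genes left out include channels known from skeletal muscle, such as Cacna1s at 0.0756 FPKM and Scn4a at 0.310 FPKM. Kcne1 was listed at 0 in all 9 libraries.

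With NPCT, no channel gene passed as a differentially expressed gene (DEG), which needed a change of more than 1.5-fold and an adjusted p-value no larger than 0.05 in limma. Of all 15958 genes tested, 0.219% were DEGs in this comparison, 0.15% in the higher and 0.0689% in the lower direction. No member reached an adjusted p of 0.05 in limma either, compared with 0.47% of all genes. At an unadjusted p under 0.05, 6 members were higher and 17 lower, against 14.4% and 14.9% of all genes. The groups did not overlap for 14 members that were higher and 25 that were lower, against 20% and 20.3% of all genes. A difference below 0 was found in 58 of the 96 members and in 49.2% of all genes.

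The adjusted p-values of this comparison depended on the libraries in the fit. Without PCT replicate 3, which enters this comparison through the shared spread, 15 members had an adjusted p of 0.05 or less in limma. Among them were Scn2a (adjusted p = 0.00731), Scn3b (adjusted p = 0.00792), Kcnip1 (adjusted p = 0.00951), Cacnb4 (adjusted p = 0.0119), Kcne5 (adjusted p = 0.0131) and Scn3a (adjusted p = 0.0148), and also Cacna2d1 and Cacng8 with 0.0277 and 0.0279. Without PCT replicate 1, 5 members passed, which were Scn2a, Scn3b, Kcnip1, Cacnb4 and Kcne5. Without NPCT replicate 3, or any other of the remaining libraries, none passed. With only the NPCT and Control libraries in the fit the number was 15. The number of DEGs among all genes moved likewise, from 35 to between 0 and 562 without 1 library. As DEGs, 2 members passed without PCT replicate 3, beside 562 of all 15958 genes, and 2 without PCT replicate 1, beside 220. With only the 2 groups it was 3 members, beside 579 genes. How many of all genes passed the adjusted threshold alone in these fits is not given here. The member counts are therefore no result particular to channel genes.

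By class, the median log2 difference between NPCT and Control was -0.28 for sodium, -0.07 for calcium and -0.05 for potassium channel genes, beside 0.006 for all genes tested. Of the sodium channel genes, 8 of 10 lay below 0, compared with 13 of 20 calcium and 37 of 66 potassium channel genes. In 5 of the 10 sodium channel genes every NPCT library lay below every Control library, beside 20.3% of all genes. In 1 of the 10 every NPCT library lay above, beside 20% of all genes. Longer genes tended to have lower values with NPCT, as described below, and sodium channel genes are long. With the relation to length removed, the medians were -0.19 for sodium and 0.006 for calcium channel genes. Without NPCT replicate 3, the calcium and potassium medians lay above 0, at 0.0021 and 0.0346.

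**Figure D2:**
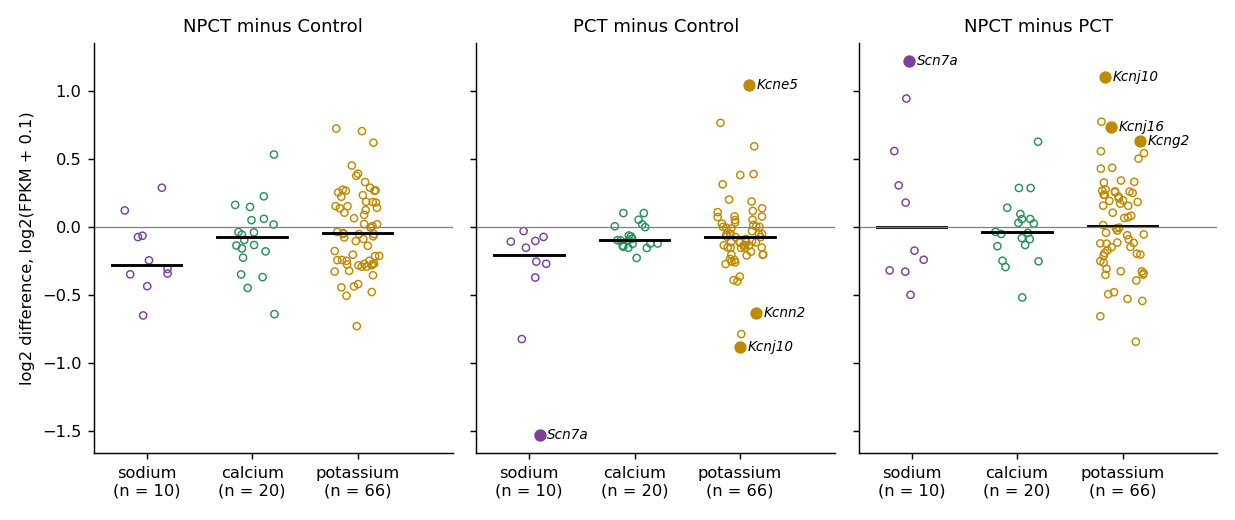
Differences of log2(FPKM + 0.1) between groups for each of the 96 channel genes, by class, in the 3 comparisons, with filled and named points for DEGs and a black line at the class median. No point is filled for NPCT minus Control, 4 are filled in each of the other 2 panels, and all 10 sodium channel genes lie below 0 for PCT minus Control.

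Scn3b had the smallest p-value of all members in this comparison. It had 47.6, 48.7 and 48.9 FPKM in the Control libraries, 40.9, 41.2 and 40.6 FPKM with NPCT and 47.3, 45.9 and 45.0 FPKM with PCT. The NPCT libraries thus lay below all others within a narrow range. The log2 difference between NPCT and Control was -0.24 (95% interval -0.35 to -0.14, adjusted p = 0.0508).

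Scn2a had 29.6, 30.8 and 30.0 FPKM in Control and 23.9, 25.0 and 22.5 FPKM with NPCT, with a log2 difference of -0.34 (95% interval -0.52 to -0.16, adjusted p = 0.0534). Its neighbour on the chromosome, Scn3a, had 15.3, 15.8 and 15.4 FPKM in Control and 12.6, 12.9 and 11.1 FPKM with NPCT, with a log2 difference of -0.35 (95% interval -0.55 to -0.14, adjusted p = 0.0600). For both genes the NPCT libraries lay below the Control libraries, whereas the PCT libraries overlapped them. When the relation to gene length was removed, the differences were -0.19 for Scn2a and -0.23 for Scn3a.

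The weakly expressed alpha subunit genes lay in the same direction with larger errors. Scn9a, known mainly from sensory neurons, had 1.68, 1.39 and 1.49 FPKM in Control and 1.11, 1.07 and 0.668 FPKM with NPCT, a log2 difference of -0.65 (95% interval -1.19 to -0.11, adjusted p = 0.115). Scn1a differed by -0.43 (95% interval -0.87 to 0.0048, adjusted p = 0.175). Scn8a had 21.8, 22.3 and 17.1 FPKM with NPCT and 21.1, 21.0 and 21.9 FPKM in Control, so that only NPCT replicate 3 lay below the Control range. Scn2b differed by -0.06 (95% interval -0.39 to 0.26, adjusted p = 0.801).

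The neuronal markers lay on both sides of 0. Of 14 such markers, 10 lay below 0 with NPCT, with a median log2 difference of -0.21, and 8 had an unadjusted p under 0.05 and a lower level, although none was a DEG. The other 4 lay above 0, and 3 of these had separate ranges, namely Slc17a7 at 0.28 (limma, adjusted p = 0.0539), Nefm at 0.28 and Tubb3 at 0.17. The summed level of all 14 was 2285 to 2380 FPKM in Control and 2191 to 2251 FPKM with NPCT. The part of this difference in the sodium channel values was not tested.

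Among the calcium channel genes, Cacnb4, a beta subunit gene mutated in epileptic and ataxic mice, differed most. It had 9.54, 9.85 and 10.4 FPKM in Control, 6.20, 7.28 and 5.62 FPKM with NPCT and 11.2, 8.74 and 7.72 FPKM with PCT. The NPCT range lay below both other groups, and the log2 difference from Control was -0.64 (95% interval -0.96 to -0.32, adjusted p = 0.0530). Although its fold change was above 1.5, it missed the adjusted threshold, and it passed in 7 of 20 alternative analyses. Cacna2d1, the alpha2delta subunit gene that promotes surface delivery of the channel, had 26.2, 26.8 and 24.8 FPKM in Control and 20.7, 21.1 and 15.6 FPKM with NPCT, a log2 difference of -0.45 (95% interval -0.74 to -0.15, adjusted p = 0.0704). Cacng3 differed by -0.37 (95% interval -0.70 to -0.04, adjusted p = 0.134).

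In the other direction, the TARP gene Cacng8 had 41.7, 43.7 and 52.8 FPKM in Control and 73.4, 65.5 and 60.9 FPKM with NPCT, a log2 difference of 0.53 (95% interval -0.0038 to 1.07, adjusted p = 0.173). PCT replicate 3, at 65.0 FPKM, lay among the NPCT libraries, and the other 2 PCT libraries, at 40.7 and 29.9 FPKM, lay below all Control libraries. Cacnb1 differed by 0.23 (95% interval 0.01 to 0.44, adjusted p = 0.149). The pore-forming subunit genes gave small differences between NPCT and Control. For Cacna1a it was 0.06, for Cacna1b -0.04, for Cacna1c -0.09, for Cacna1d -0.18, for Cacna1e -0.22, for Cacna1g 0.15 and for Cacna1h 0.16 on the log2 scale, with adjusted p-values from 0.30 to 0.78. For Cacng2 the difference was 0.02.

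Among the potassium channel genes, Kcnip1 and Kcne5 had the smallest p-values. Kcnip1 encodes a calcium-binding protein that joins Kv4 channels and shapes the A-type current of dendrites. It had 9.24, 9.35 and 8.19 FPKM in Control, 6.41, 5.72 and 6.67 FPKM with NPCT and 8.89, 8.71 and 7.22 FPKM with PCT. The NPCT libraries lay below all others, and the log2 difference from Control was -0.50 (95% interval -0.75 to -0.26, adjusted p = 0.0516). Kcne5 lay higher with both peptides. It had 14.3, 17.8 and 18.8 FPKM in Control and 29.5, 22.8 and 31.0 FPKM with NPCT, a log2 difference of 0.71 (95% interval 0.36 to 1.05, adjusted p = 0.0516). Like Cacnb4 it exceeded the fold threshold, missed the adjusted p and passed in 7 of 20 alternatives.

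Other potassium channel genes with separate ranges included Kcnk15, a K2P gene, at 0.72 (adjusted p = 0.213), Kcnh8 at -0.73 (adjusted p = 0.163) and Kcnh7 at -0.44 (adjusted p = 0.211), all by limma on the log2 scale. All 5 Kv1 genes lay below 0, with a median of -0.18, and none reached an adjusted p of 0.05. The largest of these differences was that of Kcna1, at -0.27 (95% interval -0.50 to -0.05, adjusted p = 0.113), and that of Kcna2 was -0.18 (95% interval -0.38 to 0.03, adjusted p = 0.231). Kcnma1, the large-conductance calcium-activated channel, had 12.7, 12.2 and 12.3 FPKM in Control and 11.3, 10.7 and 8.52 FPKM with NPCT. Its log2 difference was -0.29 (95% interval -0.53 to -0.05, adjusted p = 0.115).

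With PCT, 4 channel genes were DEGs, and of these Kcne5 rose while Kcnj10, Scn7a and Kcnn2 fell. This is 4.17% of the members, beside 2.31% of all genes, of which 0.589% rose and 1.72% fell. These 4 were also the only members with an adjusted p under 0.05 in limma, 1 higher and 3 lower, beside 1.75% and 2.46% of all genes. At an unadjusted p under 0.05, 4 members were higher and 13 lower, against 10.1% and 8.78% of all genes. The groups did not overlap for 8 higher and 18 lower members, against 13.1% and 11.9%. These include Kcnip2 among the higher and Scn4b among the lower, which passed the minimum FPKM only through the groups in which they are higher. A difference below 0 was found in 68 of 96 members and in 49% of all genes. The count of 4 channel DEGs became 3 without PCT replicate 3 and 5 without NPCT replicate 3. Among all genes, the DEGs numbered 368 in the main fit, and 341 and 398 without these libraries. The NPCT and PCT comparisons use the same Control libraries, so they are not independent of each other.

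Kcnj10 (Ensembl ENSRNOG00000007705, chr13:90723092-90752581, plus strand) encodes the inward rectifier of astrocytes that buffers extracellular potassium. It had 37.1, 37.9 and 33.4 FPKM in Control, 40.6, 40.4 and 45.7 FPKM with NPCT and 21.6, 16.2 and 21.2 FPKM with PCT. All PCT libraries lay below all Control libraries, and all NPCT libraries lay above them. The PCT mean was 19.7 ± 2.99 FPKM compared with 36.2 ± 2.42 FPKM in Control (SD, n = 3), a log2 difference of -0.88 (95% interval -1.14 to -0.63, adjusted p = 0.00408). It was a DEG in all 20 alternative analyses.

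Kcnj16 encodes the subunit that assembles with the Kcnj10 protein. It lies at chr10:99388130-99389898 on the plus strand. It had 5.05, 4.97 and 4.69 FPKM in Control, 3.36, 5.28 and 5.97 FPKM with NPCT and 2.48, 3.02 and 2.93 FPKM with PCT. Again the PCT libraries lay below all others, and the log2 difference from Control was -0.79 (95% interval -1.23 to -0.34, adjusted p = 0.0623), short of the threshold. It was a DEG in 3 of 20 alternatives, namely those without NPCT replicate 1, without NPCT replicate 3 and with only the 2 groups compared.

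Scn7a (ENSRNOG00000029342, chr3:52777214-52849907, minus strand) encodes an atypical sodium channel that senses extracellular sodium and is known from glia as well as neurons. It had 10.6, 8.82 and 8.99 FPKM in Control and 2.98, 3.71 and 2.99 FPKM with PCT, so the PCT range lay far below. With NPCT it had 5.07, 7.29 and 11.8 FPKM, and these libraries spread from below the Control range to above it. The log2 difference between PCT and Control was -1.53 (95% interval -2.11 to -0.94, adjusted p = 0.0151), the largest of all members in size. It missed the threshold in each of the 3 analyses that left out 1 Control library, with adjusted p-values up to 0.0734, and passed in the other 17.

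Kcne5 (ENSRNOG00000019176, chrX:113583844-113584459, minus strand) had 30.2, 34.8 and 40.2 FPKM with PCT, all above the Control values of 14.3, 17.8 and 18.8 FPKM. The log2 difference was 1.04 (95% interval 0.70 to 1.39, adjusted p = 0.00782), a 2.06-fold rise. It was a DEG in all 20 alternatives. With 616 bases in the table it is the shortest of the members, and its fragments numbered 135 to 435 per library.

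Kcnn2 (ENSRNOG00000016675, chr18:39335377-39479257, plus strand) encodes a small-conductance calcium-activated channel of the afterhyperpolarisation that follows spikes. It had 16.5, 17.5 and 14.6 FPKM in Control, 13.1, 14.6 and 14.4 FPKM with NPCT and 12.7, 10.6 and 8.32 FPKM with PCT. The lowest PCT value came from replicate 3, and the NPCT values overlapped Control at 14.6 FPKM. The log2 difference between PCT and Control was -0.63 (95% interval -0.96 to -0.31, adjusted p = 0.0451), just past the threshold. It was a DEG in 8 of 20 alternatives, and its adjusted p ranged from 0.0195 to 0.160. Without PCT replicate 3 the adjusted p was 0.0536 and without NPCT replicate 3 it was 0.0601 (limma), and of the 9 analyses that left out 1 library only that without PCT replicate 1 kept the call.

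**Figure D3:**
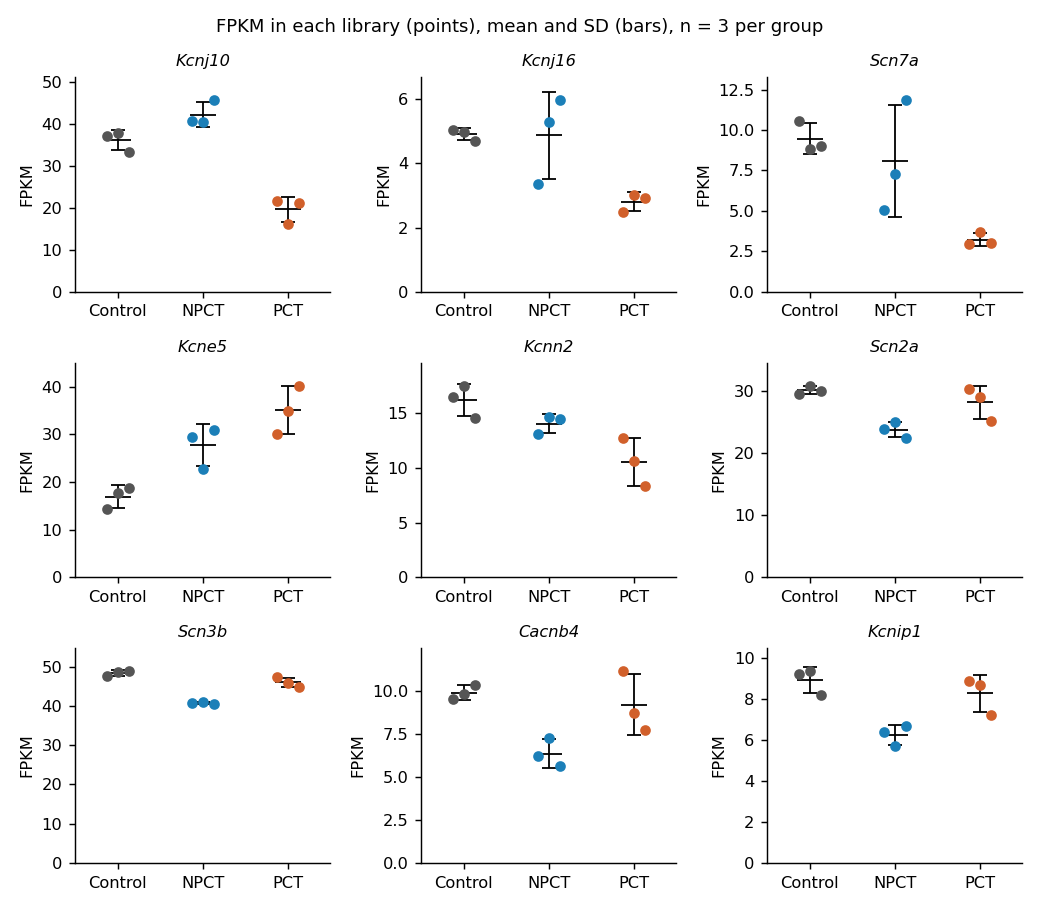
FPKM of 9 channel genes in each library (points, 3 per group), with the group mean and SD as bars, on linear axes from 0. Kcnj10, Kcnj16 and Scn7a have their lowest values in the 3 PCT libraries, Kcne5 has its lowest values in Control, and Scn2a, Scn3b, Cacnb4 and Kcnip1 have their lowest values in the 3 NPCT libraries.

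Markers of astrocytes and microglia were lower with PCT as well. Of 9 astrocyte markers, 8 lay below 0 with PCT, with a median log2 difference of -0.60, and 5 were DEGs that fell (Aqp4, Slc1a2, Aldh1l1, S100b and Aldoc). Gfap differed by 0.25 in the other direction (limma, adjusted p = 0.147). The summed astrocyte level was 2461 to 2640 FPKM in Control, 2412 to 2681 FPKM with NPCT and 2122 to 2193 FPKM with PCT. All 11 microglial markers tested lay below 0 with PCT, with a median of -1.40 and 4 DEGs, and summed to 35.6 to 49.1 FPKM in Control, 45.7, 52.3 and 216 FPKM with NPCT, the highest in NPCT replicate 3, and 16.4 to 22.3 FPKM with PCT. Markers of other cells differed in other ways. Of 9 oligodendrocyte lineage markers 7 lay above 0 with PCT, with a median of 0.17, 6 of them with separate ranges and none a DEG, although their summed level was lower, at 354 to 368 FPKM with PCT and 409 to 427 FPKM in Control, where Olig1 makes up most of it and differed by -0.51 (limma, adjusted p = 0.00161). Of 6 fibroblast markers 5 lay above 0, with a median of 0.34, and Col3a1 was a DEG that rose. The part of these differences in the Kcnj10, Kcnj16, Scn7a and Kcnn2 values was not tested.

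Neighbours of these genes had other values. Kcnj9, a subunit of neuronal G protein-activated channels, begins 12804 bases from Kcnj10 on the other strand, and its log2 difference between PCT and Control was 0.005 (95% interval -0.26 to 0.27) against -0.88 for Kcnj10. Kcnj2 lies 47537 bases from Kcnj16, and its difference was -0.13 (95% interval -0.59 to 0.33) against -0.79 for Kcnj16. The sodium channel genes Scn3a, Scn2a, Scn1a, Scn9a and Scn7a lie in this order on chromosome 3. Their differences between PCT and Control were -0.03, -0.10, -0.11, -0.15 and -1.53. The intervals of the first 4 all included 0.

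The promoters of Kcnj10, Kcnj16, Scn7a and Kcne5 are shown because Kcnj10, Scn7a and Kcne5 were called in the comparison of PCT with Control and Kcnj16 encodes the partner of the Kcnj10 protein, and all 4 have an entry in the RefSeq promoter table. Each window of 300 bases runs from 250 before to 50 after the annotated gene start, in RefSeq coordinates on GRCr8, which differ from the Rnor_6.0 positions above. Capitals mark matches, on either strand, to GGGCGG (the GC box) and CCAAT. The windows are chr13:87334260-87334559 (plus strand), chr10:96517074-96517373 (plus strand), chr3:71846235-71846534 (minus strand) and chrX:110727800-110728099 (minus strand), in this order, each printed 5′ to 3′ on the strand of the gene.
Kcnj10: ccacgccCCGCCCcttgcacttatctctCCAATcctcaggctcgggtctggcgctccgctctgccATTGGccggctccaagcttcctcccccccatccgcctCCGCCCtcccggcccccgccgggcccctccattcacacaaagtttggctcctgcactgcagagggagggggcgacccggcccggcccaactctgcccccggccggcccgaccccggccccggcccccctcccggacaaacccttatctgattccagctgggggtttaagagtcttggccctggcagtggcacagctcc
Kcnj16: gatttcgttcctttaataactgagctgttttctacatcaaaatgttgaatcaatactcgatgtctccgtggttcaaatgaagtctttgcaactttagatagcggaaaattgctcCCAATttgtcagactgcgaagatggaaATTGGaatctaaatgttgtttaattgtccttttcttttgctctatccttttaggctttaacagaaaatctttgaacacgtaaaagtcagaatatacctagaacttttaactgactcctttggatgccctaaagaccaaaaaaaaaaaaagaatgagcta
Scn7a: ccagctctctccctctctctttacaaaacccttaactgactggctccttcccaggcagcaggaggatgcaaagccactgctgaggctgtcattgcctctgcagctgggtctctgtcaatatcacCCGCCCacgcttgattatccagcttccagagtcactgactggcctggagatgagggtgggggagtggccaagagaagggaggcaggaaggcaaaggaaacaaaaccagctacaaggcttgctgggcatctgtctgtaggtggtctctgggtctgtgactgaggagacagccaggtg
Kcne5: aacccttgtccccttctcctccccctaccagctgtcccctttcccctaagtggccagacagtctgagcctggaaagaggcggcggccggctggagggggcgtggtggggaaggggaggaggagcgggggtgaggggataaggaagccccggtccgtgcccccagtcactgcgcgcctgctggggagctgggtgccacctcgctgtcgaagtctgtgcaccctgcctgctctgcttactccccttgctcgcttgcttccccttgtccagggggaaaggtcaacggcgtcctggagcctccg

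The Kcnj10 window held 2 GC boxes and 2 CCAAT matches, with 20 CpG dinucleotides. That of Kcnj16 held 2 CCAAT matches and no GC box, with 6 CpG dinucleotides. The Scn7a window held 1 GC box, with 2 CpG dinucleotides, and the Kcne5 window held no match, with 15 CpG dinucleotides. None of the 4 held TATAAA. The 3 genes that were lower with PCT shared no match of a single kind. Of 62 members with an entry, 34 (54.8%) held GGGCGG and 14 (22.6%) held CCAAT, compared with 33.1% and 37.5% of all 33469 promoters of this length. TATAAA was found in 1 member window (1.61%) and in 14.2% of all windows. The median number of CpG dinucleotides was 19 in the member windows and 7 in all windows. These matches describe the letters in the windows and no binding.

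By class, the median log2 difference between PCT and Control was -0.20 for sodium, -0.10 for calcium and -0.07 for potassium channel genes, beside 0.005 for all genes. All 10 sodium channel genes lay below 0, and 5 of them did so with separate ranges, beside 49% and 11.9% of all genes, while 1 was a DEG. Scn4b is 1 of these 5, and it passed the minimum of 0.5 FPKM only through the groups in which it is higher, so its direction is partly fixed by the choice of members. After Scn7a, the values were -0.82 for Scn4b (adjusted p = 0.324), -0.37 for Scn2b (adjusted p = 0.199) and -0.25 for Scn8a (adjusted p = 0.217), all by limma. Scn4b rested on 13 to 62 fragments per library. Scn8a had 18.2, 16.7 and 18.7 FPKM with PCT, all below Control. Leaving out the length relation moved the sodium median to -0.12.

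None of the 20 calcium channel genes reached an adjusted p of 0.05 with PCT, and their differences ran from -0.23 to 0.10. The largest was that of Cacna1a, the main presynaptic channel of central synapses, with 18.6, 19.1 and 20.4 FPKM in Control and 16.7, 17.0 and 15.8 FPKM with PCT. The ranges were separate, and the log2 difference was -0.23 (95% interval -0.45 to -0.005, adjusted p = 0.251). Those of Cacna1d and Cacna1b, also with separate ranges, were -0.14 and -0.10. Cacnb4 differed by -0.12 (95% interval -0.45 to 0.20, adjusted p = 0.711) and Cacna2d1 by -0.15 (95% interval -0.45 to 0.14, adjusted p = 0.586).

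Of the other potassium channel genes, Kcnt1, a sodium-activated channel mutated in infantile epilepsy, had 3.94, 3.67 and 3.89 FPKM in Control and 5.58, 6.30 and 5.66 FPKM with PCT. The ranges were separate, and the log2 difference was 0.59 (95% interval 0.02 to 1.17, adjusted p = 0.242). It was a DEG in 2 of 20 alternatives, those without NPCT replicate 3 (adjusted p = 0.0166) and with only the 2 groups compared. Kcnab1, a cytoplasmic beta subunit gene that confers fast inactivation on Kv1 channels, had 5.04, 4.73 and 4.55 FPKM in Control and 5.72, 6.23 and 5.94 FPKM with PCT, with a difference of 0.31 (95% interval 0.11 to 0.52, adjusted p = 0.0940). Kcnip2 had a difference of 0.77 (95% interval -0.21 to 1.74, adjusted p = 0.383), on 10 to 29 fragments per library. It passed the minimum FPKM only through the groups in which it is higher, so its direction is partly fixed by the choice of members. Kcna1 and Kcna2 differed by -0.27 and -0.26 (adjusted p = 0.178 and 0.159, limma). Of 66 potassium channel genes, 44 lay below 0. Differences between PCT and Control were -0.20 for Kcnc1, 0.14 for Kcnh1, -0.05 for Kcnk1, 0.12 for Kcnk2, -0.15 for Kcnj3, -0.15 for Kcnj6 and -0.05 for Kcnq3, with adjusted p-values from 0.43 to 0.90.

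Comparing the peptides directly, 4 channel genes were DEGs and all were higher with NPCT than with PCT. They were Kcnj10, Scn7a, Kcnj16 and Kcng2. This is 4.17% of the members, beside 5.75% of all genes, of which 4.38% were higher and 1.37% lower. Regardless of fold change, 15 members passed the adjusted threshold, 8 higher and 7 lower. This number was 30 without PCT replicate 3 and 4 to 8 without any other single library. It was 4 without PCT replicate 1 and without NPCT replicate 1, and 2 with only these 2 groups in the fit. The number of DEGs among all genes moved as well, from 918 to 1623 without PCT replicate 3 and to 525 without PCT replicate 2. How many of all genes passed the adjusted threshold alone in these other fits is not given here. In the main fit, the 15 make up 15.6% of the members, close to the 16.3% of all genes, of which 7.97% were higher and 8.32% lower. At an unadjusted p under 0.05, 19 members were higher and 11 lower, against 15.6% and 17.5% of all genes. The groups did not overlap for 17 higher and 15 lower members, against 15.4% and 18% of all genes. The higher ones include Scn4b, which passed the minimum FPKM only through the groups in which it is higher. A difference below 0 was found in 49 of 96 members and in 51.1% of all genes.

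Kcnj10 had a mean of 42.3 ± 2.98 FPKM in the NPCT libraries and 19.7 ± 2.99 FPKM in the PCT libraries (SD, n = 3), a log2 difference of 1.11 (95% interval 0.85 to 1.36, adjusted p = 0.000959). That of Scn7a was 1.22 (95% interval 0.63 to 1.81, adjusted p = 0.0180) and that of Kcnj16 was 0.74 (95% interval 0.29 to 1.18, adjusted p = 0.0369). Kcng2, a silent Kv subunit gene that acts only in complexes with other Kv subunits, had 13.9, 12.4 and 12.9 FPKM with NPCT, 9.83, 6.43 and 9.33 FPKM with PCT and 11.5, 9.60 and 11.5 FPKM in Control. The NPCT values lay above the rest, and the difference between the peptides was 0.63 (95% interval 0.28 to 0.98, adjusted p = 0.0282). Most markers of astrocytes and microglia also lay above 0 in this comparison. Of 9 astrocyte markers 8 did so, all but Gfap, with a median log2 difference of 0.42 and 3 DEGs, all higher with NPCT. So did all 11 microglial markers, with a median of 2.13 and 7 DEGs. The part of these differences in the channel values was not tested. Kcnj10 remained a DEG in all 20 alternatives, Scn7a in 18, Kcng2 in 13 and Kcnj16 in 11. Without NPCT replicate 3, Kcng2 and Kcnj16 missed the threshold (adjusted p = 0.0684 and 0.0996). In all, 3 members were DEGs in that fit, beside 630 of all 15958 genes. Without PCT replicate 3, 11 members were DEGs, beside 1623 of all genes. Leaving out PCT replicate 1 gave 2 members and 528 genes, and leaving out PCT replicate 2 gave 2 and 525. With only these 2 groups in the fit there were 1 member and 454 genes.

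Among the accessory subunit genes of Kv channels, Kcnab1 was lower with NPCT, at 3.93, 4.15 and 4.23 FPKM, than with PCT, and differed by -0.53 (95% interval -0.73 to -0.32, adjusted p = 0.00875). Kcnab2, the other Kv beta subunit gene among the members, had 13.9, 14.3 and 14.7 FPKM with NPCT and 9.28, 7.87 and 12.4 FPKM with PCT, a difference of 0.56 (95% interval 0.24 to 0.87, adjusted p = 0.0301). Among the partners of Kv4 channels, Kcnip1 differed by -0.39 (95% interval -0.64 to -0.15, adjusted p = 0.0417) and Kcnip3, which also acts as a calcium-dependent repressor of transcription, by 0.50 (95% interval 0.20 to 0.81, adjusted p = 0.0382). The Kv4 pore gene Kcnd3 was lower with NPCT as well, by -0.35 (95% interval -0.57 to -0.13, adjusted p = 0.0413).

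Among the sodium channel genes, Scn3b was lower with NPCT than with PCT, by -0.17 (95% interval -0.28 to -0.06, adjusted p = 0.0405), and so was Scn3a, by -0.32 (95% interval -0.52 to -0.11, adjusted p = 0.0446). The only calcium channel gene past the adjusted threshold was Cacnb4, with -0.52 (95% interval -0.84 to -0.19, adjusted p = 0.0414). Of the remaining potassium channel genes, the acid-sensitive leak channel gene Kcnk3 was lower with NPCT by -0.49 (95% interval -0.79 to -0.19, adjusted p = 0.0386). Kcnab2, Kcnip3, Kcnd3 and Kcnk3 are named here because they passed this threshold, which was seen only after their values were known. Of the genes of the last paragraphs that were no DEGs, Kcnab1 passed the adjusted threshold in all 9 analyses without 1 library, Cacnb4, Kcnab2 and Kcnip3 in 2 of 9, and Scn3b, Scn3a, Kcnip1, Kcnd3 and Kcnk3 in 1 of 9. Without PCT replicate 1, the adjusted p was 0.120 for Scn3b, 0.141 for Scn3a, 0.114 for Cacnb4 and 0.134 for Kcnip1. Kcnt1 lay beyond the fold threshold with a difference of -0.84 (95% interval -1.41 to -0.27, adjusted p = 0.0523). Without NPCT replicate 3, Kcnt1 and Cacna1a had adjusted p-values of 0.0352 and 0.0167. Without PCT replicate 3 those of Scn2a, Cacnb1 and Cacng8 were 0.00745, 0.0136 and 0.00351. Other members with separate ranges and no adjusted p under 0.05 included Scn9a at -0.50, Scn2a at -0.24, Cacnb1 at 0.29, Cacna1a at 0.29, Kcnh8 at -0.65 and Kcns3 at -0.54. Scn4b, at 0.95, also had separate ranges. It passed the minimum FPKM only through the groups in which it is higher, so its direction is partly fixed by the choice of members.

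**Figure D4:**
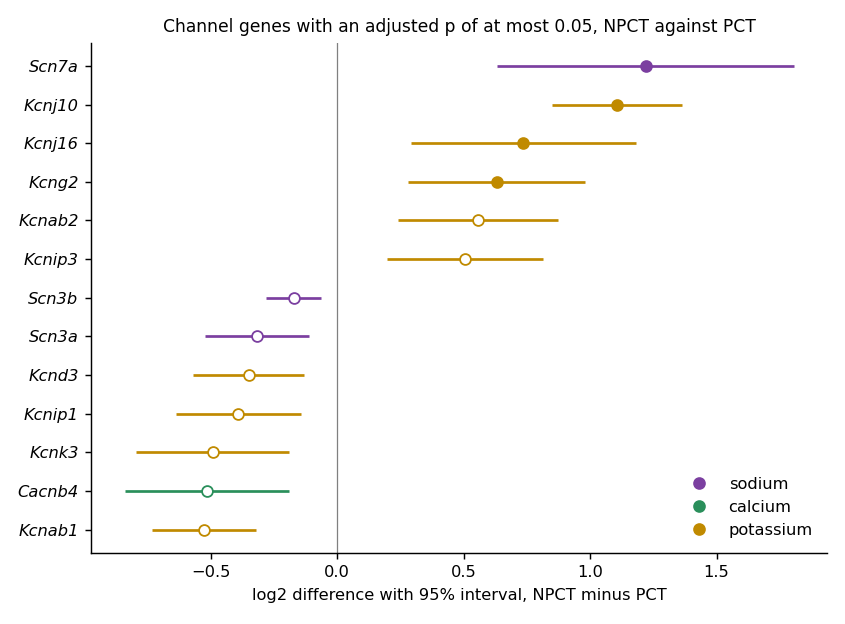
Differences of log2(FPKM + 0.1) between NPCT and PCT (points) with 95% intervals (lines) for 13 of the channel genes past the adjusted threshold of 0.05, filled where the gene was a DEG. Scn7a, Kcnj10, Kcnj16 and Kcng2 lie furthest to the right, and the 7 genes lower with NPCT all stay within the fold threshold of 1.5.

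Gene length accompanied the NPCT differences. The members had a median length of 3080.5 bases in the table, compared with 2136 bases for all genes tested, with medians of 5969 bases for sodium, 3853 for calcium and 2724 for potassium channel genes. Over the 96 members, the log2 difference between NPCT and Control had a correlation with the log2 length of r = -0.35 and rho = -0.33, and over the 15958 genes tested r = -0.11 and rho = -0.22. The points share the same 6 libraries, and genes are not independent replicates. Between PCT and Control, the values over the members were r = -0.06 and rho = 0.03, and over all genes tested r = -0.02 and rho = -0.14. Among all genes, the bin of the longest genes, with a median of 7678 bases, had a median difference of -0.16 with NPCT, and the bin around 631 bases had 0.22. With PCT the same bins had -0.07 and 0.11. The slope of a library's log2 values on log2 length, against the mean of all libraries, was -0.018 to -0.026 in the 3 NPCT libraries and -0.0007 to 0.029 in the Control libraries. For PCT the slopes of the first 2 libraries were 0.021 and 0.027, and that of replicate 3 was -0.028. The part of gene length in the values of the sodium channel genes was not tested.

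**Figure D5:**
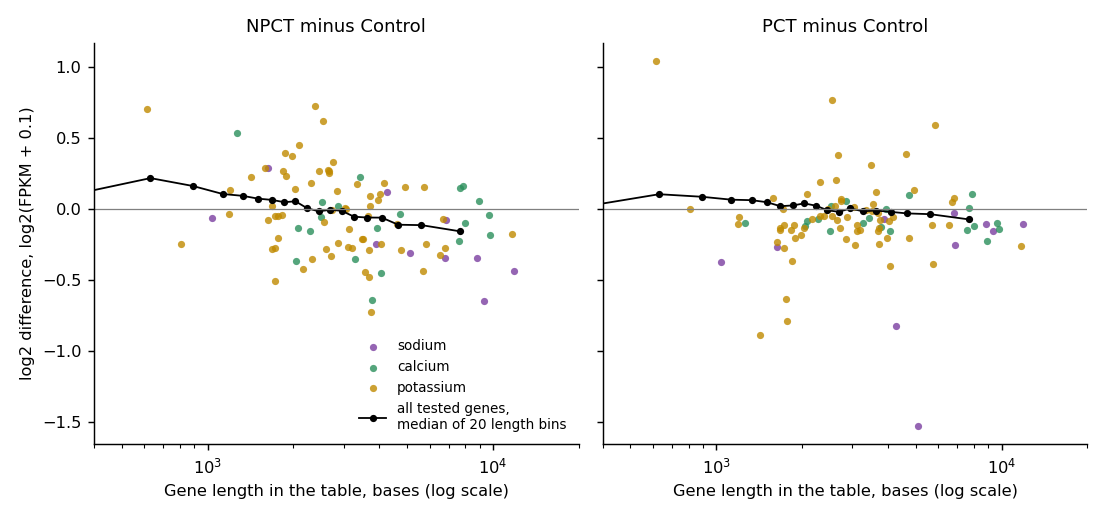
Differences of log2(FPKM + 0.1) from Control against gene length in bases (log scale) for the 96 channel genes, coloured by class, with the medians of all tested genes in bins of length as a black line (the shortest bins lie off the left edge). The line falls from left to right with NPCT, and Kcne5 is the shortest channel gene and lies highest in the PCT panel.

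Other genes that work with the channels were taken from lists. Of 30 tested genes for channel partners, such as anchoring proteins, cytoplasmic regulators and release-site scaffolds, none was a DEG with NPCT, with 18 below 0 and a median of -0.11. With PCT 1 fell, with 21 below 0 and a median of -0.09, and between the peptides 1 was higher with NPCT. The gene was the same one, Stac2, an adaptor of L-type calcium channels. It had 9.79, 9.31 and 10.2 FPKM in Control, 8.46, 9.85 and 11.2 FPKM with NPCT, and 3.71, 5.25 and 4.38 FPKM with PCT. Its log2 difference between PCT and Control was -1.13 (limma, adjusted p = 0.00384). Fgf13, a cytoplasmic partner of sodium channels, had the smallest p-value among the partners with NPCT, with a log2 difference of -0.26 (adjusted p = 0.0590) and 0.006 with PCT.

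Of 8 other voltage-dependent and leak cation channel genes, none was a DEG against Control. Tpcn2, a cation channel of lysosomes, was a DEG between the peptides with a log2 difference of 1.01 (limma, adjusted p = 0.00481). It had 3.90, 3.92 and 4.09 FPKM with NPCT, 1.61, 1.94 and 2.27 FPKM with PCT and 2.60, 2.34 and 2.83 FPKM in Control. Hcn2, a pacemaker channel gene, had the smallest p-value with PCT, with a difference of -0.22 (adjusted p = 0.0799). Of 11 listed channel genes known from non-neuronal cells, 4 were tested, and these are themselves members. All 4 lay below 0 with PCT, beside 68 of all 96 members and 49% of all genes. Only Kcnj10 was a DEG, and the other 3 were Kcnj16, Kcnk13 at -0.13 (limma, adjusted p = 0.781) and Kcna3 at -0.15 (limma, adjusted p = 0.685). In the table, 6 members overlap another gene with a mean of at least 0.5 FPKM, so that reads could be shared (Cacna1a, Cacna1h, Kcna3, Kcnh3, Kcnk9 and Kcnrg). Kcnj10, Kcnj16, Scn7a, Kcne5 and Kcnn2 overlap no other gene of the table.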

How the data were processed

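RNA was sequenced from 9 libraries of rat hippocampal neurons, 3 per group. Per the submitters' processing notes, the authors used CASAVA, HISAT2 2.0.5, StringTie 1.3.3b, featureCounts 1.5.0-p3 and DESeq2 1.20.0 with the build Rnor_6.0. The deposited values are FPKM per gene, which the authors computed from counts and gene lengths. The values were multiplied by length and divided by the smallest such value above 0 in each library. All values above 0 then were whole numbers within 0.05. This smallest value is the step of a library and was taken to stand for a lone fragment. The steps showed that the deposited FPKM carry DESeq2-type size factors and not library totals. An FPKM is relative to these factors, so it tells nothing of the total RNA per culture.

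The 15958 genes with a mean of at least 0.5 FPKM were divided by each library's median ratio, which was equal in all libraries, and fitted as log2(FPKM + 0.1) by limma (3.58.1, R 4.3.3), using all 9 libraries with a mean for each group and a trended prior variance. Fold changes are on this scale and understate those of low genes. P values are two-sided and adjusted by Benjamini-Hochberg over all tested genes in each comparison. DEGs changed more than 1.5-fold with an adjusted p-value no larger than 0.05. The fit was tested on simulated data, in which part of the truly changed genes was not called. A first demand on how many of them be called was not met. It was replaced by checks of bias, intervals, direction and false calls. A gene that was not called may therefore still have changed. The main fit used no replicate block. Over the tested genes, the deviations of same-numbered libraries from their group means had correlations from -0.07 to 0.03. Such correlations cannot exclude that the replicate numbers pair libraries. With a replicate block, the DEGs among all genes for NPCT against Control went from 35 to 319. Members at the adjusted threshold went from 0 to 7. The exact two-sided permutation test was not used, since 3 against 3 cannot go below 0.1.

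The members and lists were chosen with earlier results of these data known. The genes named are DEGs, up to 3 members per class and direction with the largest differences among those with separate ranges, the 3 most expressed of each class, a list of well-known channels, and in each list of other genes the DEGs or the gene with the smallest p. The alternatives were other pseudocounts, filters on low values and scalings, fits of 2 groups, a replicate block, removal of the length relation, limma-voom on the recovered fragments and leaving out each library. Scaling to the total of fragments was added after seeing the data. Promoter windows came from RefSeq (GRCr8). Some genes that meet the naming rule are not reported here. Apart from the promoter windows, no genome sequence was used here, and no protein sequence was used.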

Additional observations from a re-analysis of the deposited data

How the results depend on the processing

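The number of channel DEGs for NPCT against Control was 0 and became 2 with a minimum mean of 1 FPKM, with quantile normalization and with a replicate block (Cacnb4 and Kcne5 in each), and 3 with only the 2 groups compared and with limma-voom. Leaving out 1 library gave 0 to 2, with 2 without PCT replicate 1 and without PCT replicate 3. At an unadjusted p under 0.05 the main analysis had 23 members. Regardless of fold change, the members with an adjusted p no larger than 0.05 numbered 0 in the main fit. They numbered 15 with only the 2 groups, 9 with limma-voom, 7 with the replicate block, 5 with a minimum of 1 FPKM and 4 with quantile normalization. Without 1 library they numbered 0 to 15. The matching numbers of all genes are not given here. DEGs among all genes numbered 35 in the main fit, and 579, 354, 319, 208 and 189 with these settings in the same order. For PCT against Control the number of channel DEGs was 4, with 3 to 5 over the alternatives. It was 2 to 5 without 1 library, and 2 without any 1 Control library (Kcne5 and Kcnj10). With the replicate block it was 3, without Kcnn2 (adjusted p = 0.0553). For NPCT against PCT it was 4, with 1 to 6 over the alternatives, 1 with only these 2 groups, 2 to 11 without 1 library and 4 with the replicate block. The block left all class medians as they were.

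The sodium median for NPCT against Control was -0.1947 with the length relation removed and -0.2888 to -0.185 without 1 library. The calcium median was 0.0062 with the length relation removed and -0.1344 to 0.0021 without 1 library, above 0 without NPCT replicate 3, and the potassium median was -0.0668 to 0.0346, also above 0 without NPCT replicate 3. For PCT against Control the sodium median was -0.1513 with a minimum of 1 FPKM and -0.1228 with the length relation removed. For NPCT against PCT, a minimum of 1 FPKM gave -0.1724 for sodium and 0.0677 for potassium. Without 1 library the medians were -0.0326 to 0.0744 for sodium, -0.0653 to 0.0802 for calcium and -0.0126 to 0.0825 for potassium, the highest each time without NPCT replicate 3. The causes were not tested. Over 58 differences of named genes with a stated direction, 1090 of 1155 values under 20 alternatives stayed on their side of the threshold. Of the rest, 33 lost it and 32 gained it, and none changed sign. Most of these differences were no calls in the main fit and had no call to lose. All 33 losses fell on main calls. With PCT, Scn7a was kept in 17 of 20 alternatives and Kcnn2 in 8, while Kcne5 and Kcnj10 were kept in all. Between the peptides, Scn7a was kept in 18, Kcng2 in 13 and Kcnj16 in 11, and Kcnj10 in all. Of 78 other small differences, 62 of 1560 values changed sign.

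Depth limits mainly the 24 members with fewer than 100 fragments in a library. With 3 libraries per group of pooled material, culture-to-culture spread is not fully covered, and the mixed cell types of the cultures cannot be separated in bulk RNA.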

Other observations

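Summed over families, the inward rectifier genes (10 members) were at 77.3 ± 1.78 FPKM in Control, 85.1 ± 3.83 FPKM in the NPCT libraries and 57.3 ± 5.12 FPKM in the PCT libraries (SD, n = 3), and Kcnj10 supplied more of this sum than any other member. The accessory KCNE genes (2 members, most of it Kcne5) were at 19.5 ± 2.14, 30.3 ± 4.39 and 37.7 ± 5.61 FPKM. The 4 Kv3 genes, which serve fast repolarisation, were at 40.1 ± 2.25, 43.0 ± 3.81 and 33.3 ± 4.81 FPKM. The calcium- and sodium-activated channel genes (6 members) were at 53.2 ± 1.40, 45.8 ± 4.12 and 47.4 ± 4.17 FPKM, and the 5 Kv1 genes at 48.5 ± 0.380, 42.9 ± 2.44 and 44.0 ± 2.47 FPKM. The alpha2delta genes (3 members) were at 51.4 ± 0.910, 40.0 ± 4.75 and 48.1 ± 7.19 FPKM. The pore-forming genes of the high-threshold calcium channels (5 members) were at 75.6 ± 2.72, 72.5 ± 10.4 and 68.2 ± 2.53 FPKM, so that the NPCT spread covered the Control values. These sums were chosen after the values were seen and were not tested.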
